A study of Homo sapiens with 8 samples.

Results

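The genes described here are the heat shock proteins of the HSP90, HSP70 (HSPA), HSP110 and small heat shock protein (HSPB) families, the chaperonin pair HSPD1 and HSPE1, the DNAJ co-chaperones of classes A, B and C, and the heat shock transcription factors HSF1 and HSF2. They were chosen by a rule on gene symbols that uses no measured value, though with earlier results of these data known. Of the 23346 genes in the count table, 82 matched. Of these 82, 74 were protein coding and 8 were pseudogenes in the GENCODE annotation. Polyadenylated RNA of hCMEC/D3 was sequenced in 8 replicate libraries. This established human line, made from endothelial cells of brain microvessels and immortalised, is grown as a model of the blood-brain barrier. The labels gave 1 group with no treatment, time or genotype, and did not say whether the replicates were separate cultures. The spread between libraries may therefore be technical, and no condition could be compared.

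Molecular chaperones bind proteins that are unfolded or only partly folded and help them to fold, assemble or be degraded. HSP70 proteins work in cycles of ATP hydrolysis that are started by DNAJ proteins, which also choose the client, and HSP90 takes over many signalling proteins from HSP70. After heat or other protein damage, HSF1 is released from chaperones and binds heat shock elements in DNA, and a small set of genes such as HSPA1A, HSPA1B, HSPA6, HSPB1 and DNAJB1 is transcribed strongly. In endothelium, HSP90 is known as a partner of nitric oxide synthase and HSPB1 as a regulator of actin.

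Library sizes ranged from 69388544 to 90205244 counts. All counts were even, so these equal 34694272 to 45102622 steps of 2 counts, called read pairs here. Levels are given as CPM, the count scaled to a common library size with TMM factors. A gene with a count of 0 could still have 0.0665 to 0.0865 CPM, depending on the library, as 3 read pairs would give. That limit covers counting error only. The 6 endothelial markers tested, among them CDH5, PECAM1 and VWF, were all detected, with a summed level of 1509 to 2720 CPM. Markers of muscle, testis, neuron, epithelium and leukocytes summed to at most 0.804, 0.111, 0.336, 1.73 and 0.606 CPM. Libraries differed in how levels changed with transcript length. The slope of log2 deviation per doubling of length was -0.23 in replicate 2, -0.11 in replicate 7 and -0.34 in replicate 8, and lay between 0.09 and 0.15 in the other 5.

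A gene was called detected when it had at least 1 CPM in all 8 libraries. By this rule 62 of the 82 genes were detected (75.6%), against 51.3% of all genes in the table. Among the genes matched by symbol, all 3 coding HSP90 genes and all 3 HSP110 genes were detected. All 4 DNAJA genes, both chaperonin genes and both factors were also detected. So were 9 of 13 HSPA (not counting HSPA4 and HSPA4L, which are HSP110 genes), 9 of 13 DNAJB, 25 of 28 DNAJC and 4 of 8 HSPB genes. The only detected pseudogene was HSP90AB2P. The summed share of the 82 genes in each library was 1.15% ± 0.0315 (SD, n = 8), lowest in replicate 5 at 1.12% and highest in replicate 8 at 1.21%. The 4 genes HSPA8, HSP90B1, HSP90AA1 and HSP90AB1 made up 46.9% ± 1.09 of that share (SD, n = 8). Levels of different genes are compared below as RPKM, in which CPM is divided by the length of the canonical transcript in kilobases. In bulk libraries such as these, fewer cells making a transcript and less RNA per cell cannot be told apart.

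**Figure D1:**
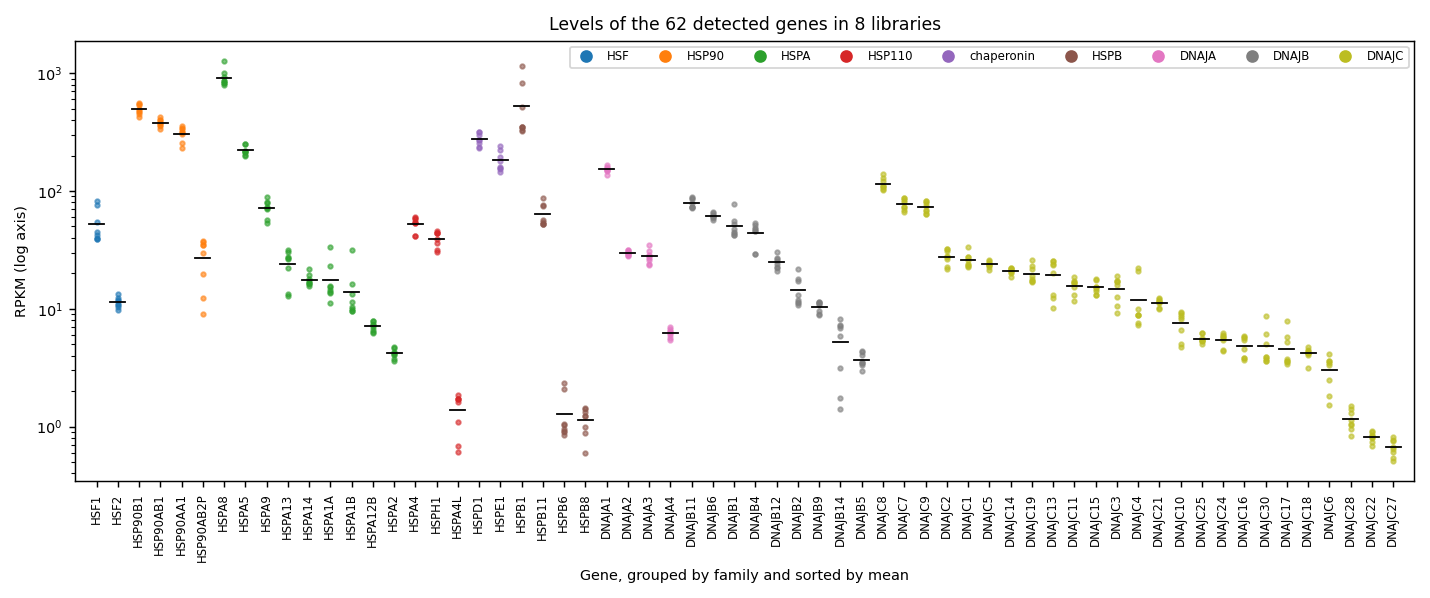
RPKM on a log axis of each of the 62 detected genes, grouped by family; points are the 8 libraries and bars the means. HSPA8, HSPB1 and HSP90B1 have the highest means, and the points of DNAJB14, HSP90AB2P and HSPB1 are spread most widely. Replicates 8 and 2 raise the mean of HSPB1, whose points lie below those of HSP90B1 in most libraries.

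HSF1, the main activator of the heat shock response (chromosome 8, 145515270 to 145538385, plus strand, 13 exons), had 82.9 CPM in its lowest library, a median of 92.1 and 175 in its highest. Its values in replicates 2 and 8 were 161 and 175 CPM, while the other 6 libraries lay between 82.9 and 116. HSF1 transcripts are rich in G and C (63.9%), and the level followed the length slope of the libraries closely (r = -0.99 across 8 libraries, a description only). On the values that the authors normalised for length and GC content (CQN, log2 scale), HSF1 spanned only 0.16 between its lowest and highest library, against 1.08 for log2 CPM. HSF2, which can form mixed trimers with HSF1 (chromosome 6, 122720696 to 122754264), was steadier, at 25.2 to 34.4 CPM with a median of 29.5. Per length, HSF1 lay above HSF2 in 8 of 8 libraries, at 52.0 ± 17.3 against 11.4 ± 1.12 RPKM (SD, n = 8). The log2 ratio of RPKM + 0.1 was 2.12 ± 0.55, or 1.46 with the longest annotated transcripts.

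That ratio is 1 of 14 gene pairs compared in this way within each library, with an exact permutation of the signs (two-sided) for each and adjustment over the 14 pairs. Every pair had the same sign in 8 of 8 libraries, which gives p = 0.00781 and adjusted p = 0.00781 in the exact permutation test. This is the smallest value that 8 libraries can give, so the size of each ratio and its SD say more than the p-value. A ratio between genes also rests on the transcript lengths used.

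**Figure D2:**
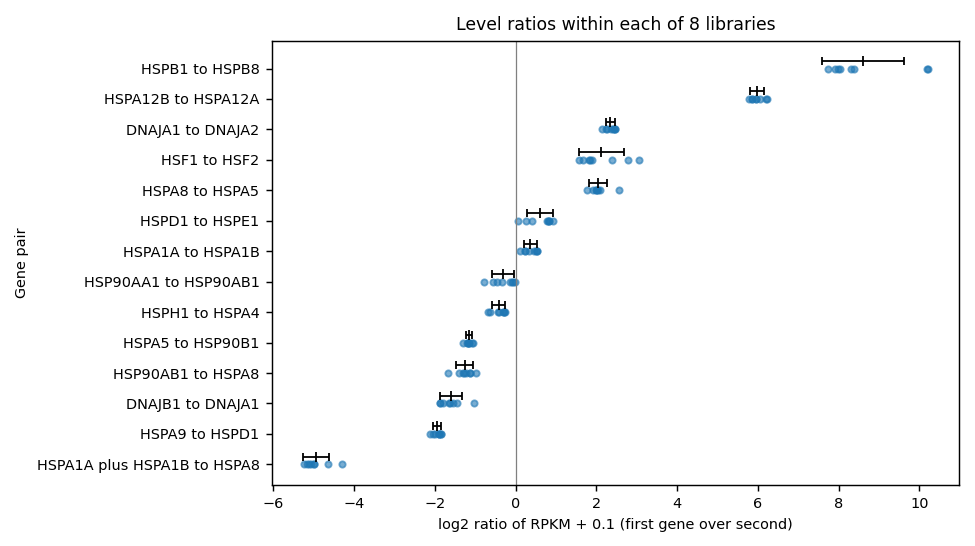
The log2 ratio of RPKM + 0.1 for 14 gene pairs, first gene over second; points are the 8 libraries and black bars the mean ± SD. HSP90AA1 to HSP90AB1, HSPA1A to HSPA1B and HSPH1 to HSPA4 come closest to 0, and HSPB1 to HSPB8 is widest, at 8.59 ± 1.01.

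The promoters of these genes are shown because heat shock elements are the sites through which HSF1 acts. An element is built of GAA units in alternating orientation. RefSeq promoter windows (build GRCh38.p14, 250 bases before to 50 after a start) were given for 65 of the 82 genes and numbered 85, since some genes have several starts. Both strands were searched for 2 adjoining units (GAANNTTC or TTCNNGAA) and for 3 (GAANNTTCNNGAA or TTCNNGAANNTTC, each of which holds a 2-unit match). Among all 35116 windows, 13.5% held 2 units and 0.490% held 3 units. Among the 85 windows of these genes, 23 held 2 units (27.1%) and 7 held 3 units (8.24%). The 7 belonged to HSPA8, HSP90AA1, HSP90AB1, HSPD1, HSPA6, DNAJB6 and DNAJA1. The DNAJA1 match, with its 8 flanking bases, did not lie wholly upstream of the start. For each of the other 6, 1 match upstream of a start listed in RefSeq is shown with 8 flanking bases, 5′ to 3′ on the strand of the gene, with the 3 units in capitals. Distances are to the start whose window held the match. HSPD1, HSP90AA1 and HSP90AB1 also had other listed starts, whose windows held no match. The matches shown for these genes lie downstream of those other starts.
HSPA8 (chr11:123062171-123062199, minus strand, 55 bases upstream): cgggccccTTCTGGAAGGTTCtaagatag
HSP90AA1 (chr14:102087112-102087140, minus strand, 88 bases upstream): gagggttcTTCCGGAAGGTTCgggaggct
HSP90AB1 (chr6:44247823-44247851, plus strand, 112 bases upstream): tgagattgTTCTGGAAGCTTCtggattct
HSPD1 (chr2:197500060-197500088, minus strand, 240 bases upstream): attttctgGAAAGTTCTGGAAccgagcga
HSPA6 (chr1:161524458-161524486, plus strand, 74 bases upstream): cggaaaggTTCGCGAAAGTTCgcggcggc
DNAJB6 (chr7:157336865-157336893, plus strand, 131 bases upstream): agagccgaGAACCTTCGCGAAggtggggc
Of these 6 genes, 5 were detected, with mean levels from 61.5 RPKM for DNAJB6 to 917 RPKM for HSPA8. HSPA6 was not, at 0.0581 CPM, so a match of this kind was found in promoters at both ends of the range. A match is a description of the sequence and not a measured site.

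The strongly inducible genes HSPA1A, HSPA1B, DNAJB1 and HSPB1 had 2-unit matches and no 3-unit match in this window. HSPA1A and HSPA1L, a relative known from testis, are transcribed away from each other and share the same element, read here on the HSPA1A strand, and HSPA1B carries a near copy (2 units in capitals).
HSPA1A (chr6:31815429-31815452, plus strand, 106 bases upstream): aaaccctgGAATATTCccgacctg
HSPA1B (chr6:31827625-31827648, plus strand, 105 bases upstream): aacccctgGAATATTCccgacctg
DNAJB1 (chr19:14518459-14518482, minus strand, 77 bases upstream): gcggggcgGAAGGTTCtggagggg
HSPB1 (chr7:76302483-76302506, plus strand, 182 bases upstream): taacgagaGAAGGTTCcagatgag
DNAJB1 had several listed starts, and the match shown lies downstream of another of them. These 4 genes are described further below. Each was highest in replicate 8, as were 33.9% of the detected members and 36.0% of all detected genes.

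Among the HSP90 genes, HSP90B1, the HSP90 of the endoplasmic reticulum (chromosome 12, 104324189 to 104341703), was highest per length. It ranged from 425 to 564 RPKM with a median of 487. The cytosolic genes were HSP90AB1, which is made constantly (chromosome 6, 44214849 to 44221614), and HSP90AA1, which is inducible by stress (chromosome 14, 102547075 to 102606086). HSP90AB1 ranged from 334 to 424 RPKM with a median of 377.5, and HSP90AA1 from 230.1 to 358.5 RPKM with a median of 316. HSP90AA1 lay below HSP90AB1 in 8 of 8 libraries, by a log2 ratio of -0.31 ± 0.28, but by only -0.02 in replicate 1 and by -0.79 in replicate 8. On CPM, with no length, the mean ratio turned to 0.0267 (exact permutation test, adjusted p = 0.789), so the order of the 2 cytosolic genes was not settled by these data. HSP90AA1 was lowest in replicates 8 and 2, at 743 and 826 CPM. The other 6 libraries lay at 990 to 1157 CPM. The level of HSP90AA1 followed the length slope of the libraries (r = 0.95, a description only). HSP90AB1 was lowest in replicate 6 (853 CPM) and highest in replicate 7 (1084 CPM).

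HSP90AB2P (chromosome 4, 13335037 to 13339925) is annotated as a processed pseudogene that is transcribed, a copy of HSP90AB1 inserted from its RNA. It had 64.2, 27.1, 82.0, 75.2, 75.7, 80.6, 42.8 and 19.8 CPM in replicates 1 to 8. Replicates 8, 2 and 7 were thus lowest. HSP90AB1 did not show this pattern, as its values in the same 3 libraries were 1018, 968 and 1084 CPM. The copies match at 93.1% of 2169 aligned bases, and 4.18% of the 50-base windows of the HSP90AB2P transcript also occur in HSP90AB1 transcripts. Read length was not given, so 50 bases is an arbitrary choice. A stretch of 90 coding bases is shown with the typical number of differences, here 6, in capitals (GRCh37, plus strand), to show how often a read could tell the genes apart.
HSP90AB1 (chr6:44217122-44217211): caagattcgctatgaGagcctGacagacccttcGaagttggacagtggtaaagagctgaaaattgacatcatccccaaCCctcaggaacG
HSP90AB2P (chr4:13338261-13338350): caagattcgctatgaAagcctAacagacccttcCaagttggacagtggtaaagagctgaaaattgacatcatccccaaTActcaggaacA
The other 5 HSP90 pseudogenes were not detected. Their means ran from 0.0292 CPM for HSP90AA6P, which is under the limit that a count of 0 allows, through 0.114 for HSP90AA4P, 0.393 for HSP90B3P and 0.446 for HSP90AB4P to 1.24 CPM for HSP90AB3P, whose lowest library had 0.615.

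HSPA8, the constitutive cytosolic HSP70 (chromosome 11, 122928200 to 122932901, minus strand, 9 exons), had the highest mean level of all 82 genes. It ranged from 788 to 1276 RPKM with a median of 855, and replicate 8 was highest. HSPA8 lay above HSP90AB1 in 8 of 8 libraries, the ratio of HSP90AB1 to HSPA8 being -1.26 ± 0.21 on the log2 scale. Small nucleolar RNAs are encoded in introns of HSPA8, and processed copies exist elsewhere. In all, 16.8% of the 50-base windows of its transcript occur in transcripts of other genes.

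The stress-inducible HSP70 genes HSPA1A (chromosome 6, 31783291 to 31785719) and HSPA1B (chromosome 6, 31795512 to 31798031) lie beside each other and have 1 exon each. HSPA1A had 32.9, 55.7, 34.9, 36.4, 26.7, 33.4, 37.6 and 80.9 CPM in replicates 1 to 8. HSPA1B had 24.97, 41.2, 28.8, 26.3, 24.0, 24.3, 33.3 and 79.0 CPM. Replicate 8 was highest for each gene and replicate 2 next. The summed RPKM of the pair lay far below HSPA8 in 8 of 8 libraries, with a log2 ratio of -4.94 ± 0.32, or -4.29 in replicate 8. Their levels were uncertain, since 75.1% of the 50-base windows of HSPA1A occur in HSPA1B and 71.6% of those of HSPA1B in HSPA1A. How reads that fit several places were counted was not given in the sources used here. Within 1923 coding bases the genes differ at 4. The stretch of 60 bases with most differences is shown, with the 2 differing bases in capitals (GRCh37, plus strand).
HSPA1A (chr6:31785379-31785438): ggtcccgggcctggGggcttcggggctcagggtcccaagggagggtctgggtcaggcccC
HSPA1B (chr6:31797573-31797632): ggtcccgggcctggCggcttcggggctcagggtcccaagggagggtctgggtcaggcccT
HSPA1A exceeded HSPA1B by a log2 ratio of 0.37 ± 0.16 in 8 of 8 libraries, with the same reservation. HSPA1L had 0.855 to 1.56 CPM, again highest in replicate 8, and was not detected. HSPA6, which is nearly silent in most unstressed cells, had 0.0581 ± 0.0462 CPM (SD, n = 8) and at most 12 counts in a library. Its mean was under the limit that a count of 0 allows. Its pseudogene HSPA7 had no counts in any library.

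The remaining HSP70 genes of the cytosol were lower. HSPA14, which works at the ribosome, had 17.6 ± 1.97 RPKM and HSPA2, known for its part in sperm formation, had 4.18 ± 0.400 RPKM (SD, n = 8). HSPA12B (chromosome 20, 3713317 to 3733758), a distant HSP70 relative known from endothelial cells, ranged from 19.6 to 24.9 CPM with a median of 22.2. Its relative HSPA12A had between 4 and 8 counts in each library (0.0780 CPM) and was not detected. The log2 ratio of HSPA12B to HSPA12A was 5.98 ± 0.17, a value that for HSPA12A is set by the pseudocount of 0.1.

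In the endoplasmic reticulum, HSPA5 (BiP, the HSP70 of that compartment; chromosome 9, 127997127 to 128003666) ranged from 783 to 980 CPM with a median of 849. HSP90B1 ranged from 1182 to 1569 CPM with a median of 1354. Both were highest in replicate 1, next in replicate 2, and lowest in replicate 5. HSPA5 lay below HSP90B1 by a log2 ratio of -1.16 ± 0.07, the smallest SD of the 14 ratios. The SD covers the libraries and not the choice of transcript: with the longest annotated transcripts the ratio was -0.379. HSPA8 exceeded HSPA5 by 2.04 ± 0.23, or by 1.25 on CPM with no length. HSPA13, a microsomal HSP70, ranged from 50.7 to 124 CPM and was lowest in replicates 8 and 2. Its level followed the length slope of the libraries (r = 0.96, a description only). Among the DNAJ proteins of the compartment, DNAJB11 had 79.2 ± 6.98 RPKM, DNAJC1 had 26.0 ± 3.64, DNAJC3 had 14.8 ± 3.54 and DNAJB9 had 10.4 ± 1.11 (SD, n = 8). DNAJC10, which breaks disulfide bonds, had 7.58 ± 1.89 RPKM, but the annotated transcript is 20144 bases long, so a shorter main transcript would raise that level.

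In mitochondria, HSPD1 (HSP60; chromosome 2, 198351308 to 198364998, minus strand) and its lid HSPE1 (HSP10; chromosome 2, 198364721 to 198368187, plus strand) are transcribed from a shared promoter in opposite directions. HSPD1 ranged from 231.4 to 318.5 RPKM with a median of 271.7, and HSPE1 from 144.6 to 242 RPKM with a median of 169.9. HSPD1 exceeded HSPE1 in 8 of 8 libraries by a log2 ratio of 0.61 ± 0.33. With the longest annotated transcripts in place of the canonical ones the mean turned to -0.197 (exact permutation test, adjusted p = 0.195), so the order was not settled. HSPE1 also overlaps a readthrough gene, and 48.2% of its 50-base windows occur in other genes, as do 27.1% of those of HSPD1. HSPA9 (mortalin, the mitochondrial HSP70) ranged from 53.3 to 88.1 RPKM with a median of 72.7, and lay below HSPD1 by a log2 ratio of -1.95 ± 0.10, or -0.977 on CPM with no length. DNAJA3, its partner, had 27.8 ± 3.65 RPKM. DNAJC19 and DNAJC15, which belong to the import motor, had 19.9 ± 3.30 and 15.2 ± 1.77 RPKM. DNAJC11 and DNAJC30 had 15.7 ± 2.32 and 4.81 ± 1.79 RPKM (SD, n = 8).

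HSP110 proteins act as nucleotide exchange factors of HSP70. HSPA4 ranged from 41.2 to 59.8 RPKM with a median of 53.9. The stress-inducible HSPH1 (chromosome 13, 31710763 to 31736117) ranged from 30.3 to 46.0 RPKM with a median of 41.3. HSPH1 lay below HSPA4 by a log2 ratio of -0.42 ± 0.16 in 8 of 8 libraries. HSPH1 had 159 and 164 CPM in replicates 2 and 8 and 191 to 241 CPM in the other 6. It was thus low where HSPA1A and HSPA1B were high. Across the 8 libraries, r with the length slope was 0.96 for HSPH1, -0.89 for HSPA1A and -0.92 for HSPA1B, a description only. HSPA4L had 1.38 ± 0.501 RPKM (SD, n = 8), and its values of 7.27 and 6.51 CPM in replicates 2 and 8 were the lowest. Its annotated transcript is 10608 bases long, so a shorter main transcript would raise that RPKM. The level of HSPA4L also followed the length slope (r = 0.98).

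Small heat shock proteins hold unfolded proteins without using ATP. HSPB1 (HSP27; chromosome 7, 75931875 to 75933614, 3 exons) had 269.9, 642, 258, 269.9, 251, 270.2, 398 and 893 CPM in replicates 1 to 8. Replicates 8 and 2 were highest, replicate 7 next, and the other 5 lay close together. Its transcript is short (777 bases) and rich in G and C (65.3%). On the authors' CQN values, HSPB1 spanned 0.39 between libraries, against 1.83 for log2 CPM. Per length HSPB1 had 523 ± 305 RPKM (SD, n = 8), with a range of 323 to 1149. HSPB8, which works with BAG3 in selective autophagy, ranged from 1.11 CPM in replicate 2 to 2.68 CPM in replicate 7. HSPB6, best known from muscle, had 1.85 ± 0.864 CPM (SD, n = 8). HSPB11, now named IFT25 as a part of intraflagellar transport, ranged from 35.7 to 59.5 CPM with a median of 38.1. The log2 ratio of HSPB1 to HSPB8 was 8.59 ± 1.01 in 8 of 8 libraries. The mean levels of HSPB2, HSPB3, HSPB7 and HSPB9, none of them detected, were 0.239, 0.00324, 0.0533 and 0.165 CPM. HSPB2, HSPB3 and HSPB7 are known from heart and skeletal muscle, and the muscle markers DES, MYH7 and ACTA1 had means of 0.180, 0.245 and 0.139 CPM.

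The DNAJ proteins stimulate HSP70. In class A, DNAJA1 (chromosome 9, 33025209 to 33039062) ranged from 136 to 165 RPKM with a median of 153. DNAJA2 had 29.9 ± 1.45, DNAJA3 27.8 ± 3.65 and DNAJA4 6.24 ± 0.525 RPKM (SD, n = 8). DNAJA1 exceeded DNAJA2 by a log2 ratio of 2.35 ± 0.12, and the SDs of their log2 CPM were 0.08 and 0.07.

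In class B, DNAJB11 was highest per length, at 72.4 to 89.0 RPKM. DNAJB6, a suppressor of polyglutamine aggregation, followed at 57.2 to 65.7 RPKM with a median of 61.1, the steadiest of the 62 genes on log2 CPM (SD 0.07). DNAJB1 (HSP40; chromosome 19, 14625582 to 14629201), the inducible partner of HSPA1A, had 99.99, 124, 106, 95.6, 97.9, 95.6, 119 and 175 CPM in replicates 1 to 8. Replicate 8 stood apart, and the other 7 lay between 95.6 and 124 CPM. DNAJB1 lay below DNAJA1 by a log2 ratio of -1.61 ± 0.28 in 8 of 8 libraries, and by -1.03 in replicate 8. With the longest transcripts the mean ratio was -2.53. DNAJB4, DNAJB12, DNAJB2 and DNAJB5 had mean levels of 43.9, 24.9, 14.4 and 3.68 RPKM. DNAJB14 (chromosome 4, 100820710 to 100867879), a membrane protein of the endoplasmic reticulum, had 43.1, 10.5, 49.1, 42.4, 35.01, 40.7, 18.8 and 8.42 CPM in replicates 1 to 8. Replicates 8, 2 and 7 were lowest, and the ratio of its highest to its lowest value, 5.83, was the largest of the 62 genes.

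Class C holds proteins that share the J domain and little else. DNAJC8, a splicing protein, was highest, from 102 to 140.6 RPKM with a median of 109.7. DNAJC7, which binds both HSP70 and HSP90, ranged from 66.4 to 88.0 RPKM with a median of 76.8. The histone chaperone DNAJC9 ranged from 64.0 to 83.0 RPKM with a median of 72.2. Of the 50-base windows of DNAJC9, 78.5% occur in transcripts of other genes, mainly of FAM149B1. DNAJC13, which acts on endosomes, ranged from 79.3 to 196 CPM, and DNAJC6 (auxilin), which uncoats clathrin vesicles, from 9.13 to 24.7 CPM. Each had its 2 lowest values in replicates 8 and 2. For DNAJC13 and DNAJC6, r with the length slope was 0.98 and 0.99, a description only. DNAJC5, the chaperone of synaptic and other vesicles, was steady at 125 ± 7.82 CPM (SD, n = 8). DNAJC4 (chromosome 11, 63997753 to 64001753) had 9.95, 23.8, 8.31, 9.97, 8.47, 9.99, 11.3 and 25.2 CPM in replicates 1 to 8, so that replicates 2 and 8 were highest. The lowest detected genes of the class were DNAJC28, DNAJC22 and DNAJC27, at 1.15, 0.815 and 0.665 RPKM.

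The DNAJ genes that were not detected were DNAJB3, DNAJB7, DNAJB8, DNAJB13, DNAJC5B, DNAJC5G and DNAJC12. DNAJB3, annotated as a pseudogene, and DNAJC5B had no counts in any library. DNAJB8 had counts in 2 libraries (mean 0.0135 CPM). DNAJB7, DNAJB13, DNAJC5G and DNAJC12 had means of 0.262, 0.376, 0.183 and 0.523 CPM. Several of these are known from testis, and the germ cell markers DDX4 and PRM1 had means of 0.0352 and 0.0258 CPM.

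The spread between libraries was mostly small. The SD of log2(CPM + 0.1) over the 8 libraries had a median of 0.22 over the 62 genes and of 0.28 over all 11980 detected genes, and 22 of the 62 lay above the latter. On CQN values the medians were 0.14 and 0.16, and the SD was lower than for log2 CPM in 46 of the 62 genes. For 28 of the 62 genes (45.2%), log2 CPM had a correlation beyond 0.9 in size with the length slope of the libraries, 15 of them negative and 13 positive, against 49.1% of all detected genes. This is a description with n = 8 per gene, and slope and levels come from the same libraries. The highest or the lowest value fell in replicate 2 or 8 for 53 of the 62 genes (85.5%), and for 83.8% of all detected genes.

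**Figure D3:**
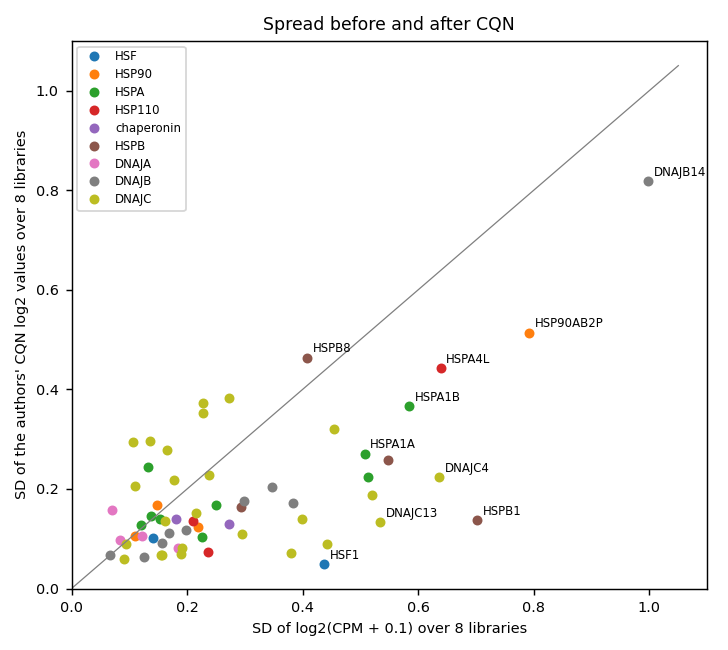
SD over 8 libraries of log2(CPM + 0.1) on the x axis and of the authors' CQN log2 values on the y axis, 1 point per detected gene, with the line of equality. HSPB1 and HSF1 lie far below the line, at 0.14 and 0.05 on the y axis, while DNAJB14 keeps 0.82 and HSP90AB2P 0.51.

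Each gene's variation between libraries was set against the edgeR dispersion trend of genes of like abundance in a goodness-of-fit test, adjusted over all 11980 detected genes by the Benjamini-Hochberg method. In all, 5 of the 62 genes had an adjusted p under 0.05 (8.06%), against 4.66% of all genes tested. At an unadjusted p under 0.05 there were 10 of 62 (16.1%), against 13.1% of all genes. The 5 were DNAJB14 (edgeR adjusted p = 7.20e-06), HSPB1 (8.76e-04), HSP90AB2P (0.00180), HSPA1B (0.0294) and DNAJC4 (0.0355). HSPB1, HSPA1B and DNAJC4 were highest in replicate 8 and next in replicate 2, and DNAJB14 and HSP90AB2P were lowest there. HSPA1A followed the pattern of HSPA1B but did not pass (edgeR adjusted p = 0.181).

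Those 5 calls rested in large part on replicates 2 and 8. Without replicate 8, 3 of the 5 remained (3.15% of all genes passed), and HSPA1B and DNAJC4 were lost (edgeR adjusted p = 1.00 and 0.0648). Without replicate 2, where 3.26% of all genes passed, DNAJC4 was lost (edgeR adjusted p = 0.129). Without both, DNAJB14 alone remained (edgeR adjusted p = 0.00528), and 2.75% of all genes passed. Replicate 7, which also had a negative length slope (-0.11), stayed in that fit. Over the 8 libraries, log2 CPM of DNAJB14 and HSP90AB2P had r = 0.99 and 0.98 with the length slope, a description only. For HSPB1, HSPA1B and DNAJC4, r was -0.98, -0.92 and -0.93. With the trend of each library on transcript length and GC content removed, DNAJB14, HSP90AB2P and HSPA1B remained, at edgeR adjusted p-values of 3.10e-05, 2.28e-15 and 0.0268. HSPB1 and DNAJC4 were lost, each with an adjusted p of 1.00, and DNAJC15 was gained, with 6.59% of all genes passing. The DNAJC15 transcript used is 7459 bases long, and its log2 CPM had r = -0.78 with the length slope. Whether the length used led to that gain was not tested. With DESeq2 size factors, with halved counts and with no filter on low counts, 5 members passed each time (with no filter, of 79 tested), against 4.71%, 4.63% and 3.26% of all genes. With DESeq2's own dispersion trend 14 members passed (22.6%), against 23.5% of all genes. The authors' CQN values showed a like division, with ranges over the 8 libraries of 2.02 for DNAJB14, 1.36 for HSP90AB2P, 1.14 for HSPA1B, 0.64 for DNAJC4 and 0.39 for HSPB1 (log2). On that scale HSPA1B was 6.79 in replicate 8 and between 5.65 and 5.98 in the other 7.

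**Figure D4:**
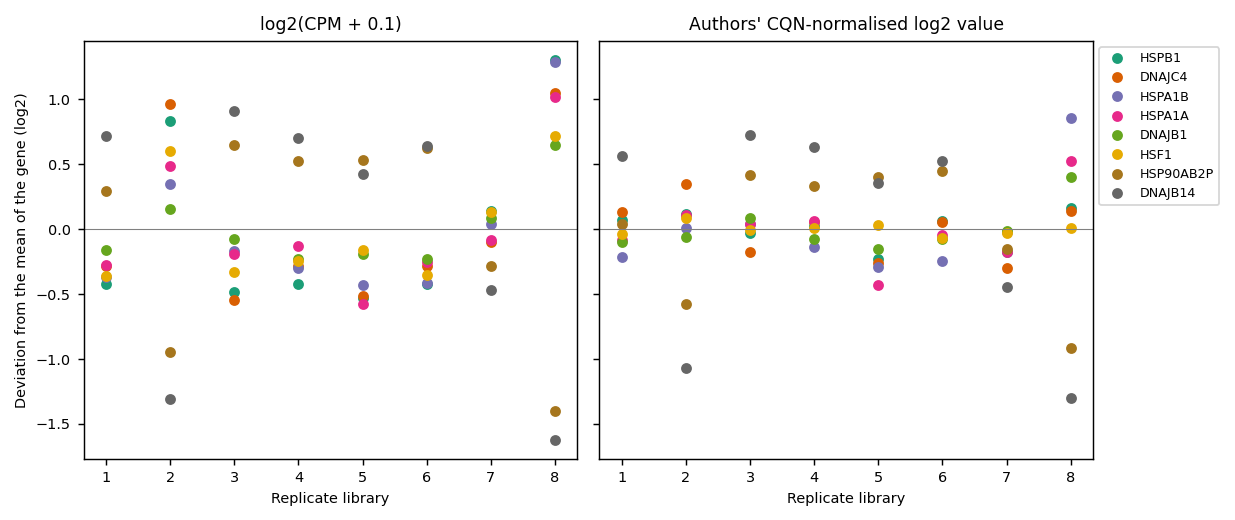
Deviation of 8 genes from their own mean (log2) in each replicate library, from log2(CPM + 0.1) on the left and from the authors' CQN values on the right. HSPB1 and HSF1 come close to 0 on the right, while DNAJB14 and HSP90AB2P stay low in replicates 2 and 8 and HSPA1B, HSPA1A and DNAJB1 stay high in replicate 8.

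Gene pairs with known joint regulation or function were compared across the 8 libraries on the authors' CQN values, with exact two-sided permutation tests over all pairings and adjustment over 8 pairs. The endoplasmic reticulum genes HSPA5 and HSP90B1 moved together (Pearson's r = 0.88, exact p = 0.00322, adjusted p = 0.0258; Spearman's rho = 0.90, exact p = 0.00486, adjusted p = 0.0389, n = 8). Without replicates 2 and 3, the farthest from the median of HSPA5, r was 0.84. On log2 CPM r was 0.86, and with length and GC trends removed it was 0.92. This was the only pair that passed in r under every setting tried.

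HSPD1 and HSPE1, which share a promoter, had r = 0.80 (exact p = 0.0139, adjusted p = 0.0279; rho = 0.81, exact p = 0.0218, adjusted p = 0.0871, n = 8), and 0.60 without replicates 5 and 7. On log2 CPM the relation was gone, at r = 0.01, and with trends removed r was 0.31 (adjusted p = 0.520 in the exact permutation test). HSPA1A and HSPA1B had r = 0.86 (exact p = 0.00928, adjusted p = 0.0279; rho = 0.74, exact p = 0.0458, adjusted p = 0.122, n = 8). Of the 50-base windows of HSPA1A, 75.1% occur in HSPA1B, and 71.6% of those of HSPA1B occur in HSPA1A. Whether reads that fit both genes added to this r was not tested. HSPA1A and DNAJB1 had r = 0.84 (exact p = 0.0125, adjusted p = 0.0279; rho = 0.60, exact p = 0.132, adjusted p = 0.176, n = 8). Without replicates 5 and 8, the farthest from the median of HSPA1A, the 2 r values fell to 0.29 and 0.03. Leaving out the farthest libraries narrows the range, which can itself lower r. Without replicate 8 alone they were 0.59 and 0.49, and neither passed. On log2 CPM HSPA1A and HSPA1B had r = 0.96 (exact permutation test, adjusted p = 0.00179), and 0.69 without the 2 farthest libraries, replicates 2 and 8. HSPA1A and DNAJB1 had r = 0.93 on log2 CPM (exact permutation test, adjusted p = 0.00655), and 0.46 without replicates 2 and 8. With trends removed these were 0.88 and 0.78 (exact permutation tests, adjusted p = 0.0158 and 0.0700).

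HSPB8 and BAG3 had r = 0.78 (exact p = 0.0183, adjusted p = 0.0292; rho = 0.62, exact p = 0.115, adjusted p = 0.176, n = 8). This fell to 0.08 without replicates 2 and 8, and on log2 CPM it turned to -0.46. The last 3 pairs did not pass on CQN values. HSP90AA1 and HSPH1 had r = 0.43 (exact p = 0.281, adjusted p = 0.374; rho = 0.60, exact p = 0.132, adjusted p = 0.176, n = 8), and 0.48 without replicates 2 and 8. On log2 CPM it passed at r = 0.92 (adjusted p = 0.00655 in the exact permutation test), and with trends removed it was -0.69. HSP90AA1 and HSP90AB1 had r = -0.14 (exact p = 0.747, adjusted p = 0.747; rho = -0.43, exact p = 0.299, adjusted p = 0.342, n = 8), and -0.64 without replicates 2 and 8. HSPA8 and DNAJA1 had r = -0.30 (exact p = 0.484, adjusted p = 0.553, n = 8), with no rank relation (exact p = 1.00, adjusted p = 1.00), and 0.47 without replicates 2 and 8. With trends removed it passed at r = 0.80 (exact permutation test, adjusted p = 0.0295). The labels gave no batch or date by which these relations could be split.

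**Figure D5:**
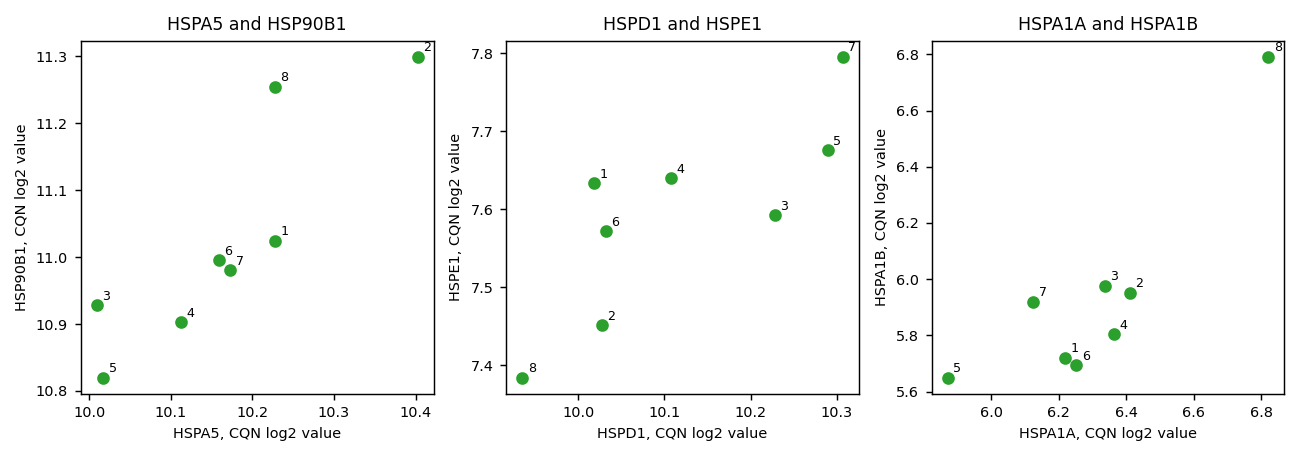
The authors' CQN log2 values of 3 gene pairs, 1 point per library, labelled by replicate number. HSPA5 and HSP90B1 rise together over all libraries (r = 0.88), whereas for HSPA1A and HSPA1B replicate 8 lies apart from the other 7.

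Other genes of the chaperone network were taken from a list of 49, mostly co-chaperones and subunits of chaperonin and prefoldin, of which 48 were detected. The lens crystallin CRYAA was not (0.0614 CPM). The 5 highest per length were PFDN5 (299 ± 99.8 RPKM, SD, n = 8), a prefoldin subunit, PTGES3 (263 ± 9.90), the p23 partner of HSP90, and CCT3, CCT7 and CCT8 (235, 215 and 196 RPKM) of the cytosolic chaperonin. In the same edgeR test, 2 of the 48 varied more than the trend (4.17%, against 4.66% of all genes). CRYAB, a small heat shock protein also known as HSPB5, had 17.9, 19.4, 12.4, 13.9, 12.7, 39.2, 22.9 and 34.1 CPM in replicates 1 to 8 (edgeR adjusted p = 0.0452). Its highest value was in replicate 6, where HSPA1A, HSPA1B and HSPB1 had 33.4, 24.3 and 270.2 CPM. Without replicates 2 and 8, CRYAB still passed (edgeR adjusted p = 1.43e-07). With no filter on low counts, CRYAB did not pass (edgeR adjusted p = 0.0570).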

How the data were processed

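Whole-number read counts per gene were deposited by the authors for 8 replicate libraries in 1 table, with symbols and gene positions, beside a table of log2 values for 13962 genes normalised by the authors for length and GC content (CQN, per the file headers). The submitters' processing notes name CASAVA 1.9, TopHat2 2.0.6 and HTSeq, and build hg19. Strand settings and the treatment of reads that fit several genes are not given in the sources used here. Positions are printed 1-based, because the deposited starts were mostly 1 below GENCODE 44 lifted to GRCh37. That annotation also gave lengths and GC content for 21443 genes, 19467 matched by symbol and 1976 by synonym. Genes with no length had no length and GC trend removed. Counts were scaled with TMM in edgeR 4.0.16 (R 4.3.3). Variation was tested by goodness of fit to edgeR's dispersion trend, over all genes with at least 1 CPM in all 8 libraries. On simulated libraries with a change in 1 library, this recovered 172 of 200 genes at 4-fold and 200 of 200 at 8-fold. It called 0 of 11980 with no change, and 4 unchanged genes at 4-fold and 1 at 8-fold. Every simulated gene was drawn at the dispersion trend, without length or GC slopes. These counts therefore do not give the rate of false calls in the real libraries. Log2 values use a pseudocount of 0.1. Sequences come from GRCh37 and from RefSeq promoter windows on GRCh38.p14.

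The members and lists were chosen with earlier results of these data known. Per-library values or ranges were given for HSF1, HSF2, the genes in pairs, the 3 highest per class by RPKM and genes above the variation trend. Undetected genes were named with their mean. Of the other chaperones, the 5 highest by RPKM and those above the trend were named, except 1 gene that is not reported here. Alternatives were DESeq2 1.42.0 size factors and dispersion trend, other filters, halved counts, removal of length and GC trends (splines with 5 degrees of freedom), other lengths and pseudocounts, and leaving out replicates 2 and 8, singly or, chosen after seeing the data, together.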

Additional observations from a re-analysis of the deposited data

Results flagged for a closer look

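In 3 of the 62 detected genes, 1 library lay apart from the other 7 by more than Dixon's critical value for 8 samples. This was so for 2.06% of all detected genes, and chance alone would give about 1 group in 20. DNAJB1 had 175 CPM in replicate 8, against 95.6 to 124 CPM in the other libraries. HSPA1B had 79.0 CPM in replicate 8, against 24.0 to 41.2 CPM in the others. DNAJC18, a membrane-bound DNAJ protein, had 16.0 CPM in replicate 7, against 20.7 to 24.3 CPM in the others. Replicate 8 also had the steepest length slope, -0.34, and its part in the first 2 values was not tested.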

How the results depend on the processing

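No paired analysis was possible because the labels give 1 group. The number of detected members stayed between 62 and 69 under all normalizations and filters run. Members above the variation trend numbered 5 with DESeq2 size factors, no filter or halved counts, 4 with length and GC trends removed, and 14 with DESeq2's dispersion trend, where 23.5% of all genes passed. Leaving out 1 library gave 3 (replicate 8) to 4 (replicate 2), and leaving out both gave 1. Of the other chaperones, 1 passed without the filter, 5 with DESeq2's trend, 4 with length and GC trends removed and 1 without replicates 2 and 8, against 2 in the report. Of the 14 level ratios, HSP90AA1 to HSP90AB1 turned to 0.0267 on CPM and HSPD1 to HSPE1 to -0.197 with the longest transcripts, both by the change of length itself. The other 12 kept their direction and call under all settings run (on CQN values 13 pairs had values), but the size of several moved by over 1.5 times. Besides the values in the report, CPM gave 2.62 for HSPD1 to HSPE1, 7.39 for HSPB1 to HSPB8 and 6.98 for HSPA12B to HSPA12A, and CQN values gave 2.53, 7.55 and none. CQN values gave 1.42 for HSPA8 to HSPA5 and -1.22 for HSPA9 to HSPD1. HSPB1 to HSPB8 was 7.69 with the longest transcripts and 7.78 with a pseudocount of 1, which gave 2.99 for HSPA12B to HSPA12A. Among the correlations, log2 CPM gave 0.00886 for HSPD1 with HSPE1, 0.921 for HSP90AA1 with HSPH1, 0.490 for HSPA8 with DNAJA1 and -0.464 for HSPB8 with BAG3. With length and GC trends removed, r was 0.310 for HSPD1 with HSPE1, 0.784 for HSPA1A with DNAJB1, -0.687 for HSP90AA1 with HSPH1, 0.0365 for HSP90AA1 with HSP90AB1 and 0.798 for HSPA8 with DNAJA1. Without replicate 8 or 2, r ranged from 0.710 to 0.793 for HSPD1 with HSPE1, 0.594 to 0.868 for HSPA1A with HSPA1B, 0.495 to 0.883 for HSPA1A with DNAJB1, -0.311 to 0.0816 for HSPA8 with DNAJA1 and 0.591 to 0.744 for HSPB8 with BAG3. HSPB8 with BAG3 failed without either of them. The first 3 failed without replicate 8 and passed without replicate 2. The cause of these changes was not tested. Genes near 1 CPM, such as HSPA1L and HSP90AB3P, changed sides of the detection limit from library to library.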
